A study of Sus scrofa with 14 samples.

Results

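The 39 genes described here encode the actin cytoskeleton of cells other than striated muscle and the focal adhesions that anchor it. They were taken as a written list, and 34 of them were found by symbol among the 25880 genes of a bulk RNA sequencing count table from pig knee tissue and cells. FLNA, TNS1 and DIAPH1 carry no symbol in that table and were found through their identifiers in a reference table, so that their values are given apart and enter no count. MYH10 and MYL12B were not analysed here. All 34 genes passed the filter of at least 10 reads summed over the 14 libraries.

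The libraries are full thickness articular cartilage of the femur (n = 3), explants of the inner zone (n = 3) and of the outer zone (n = 3) of the medial meniscus, and cells isolated from the inner zone (n = 3) or the outer zone (n = 2) of that meniscus and expanded on plastic to passage 3 (P3). The animals were skeletally mature female pigs. Explants stayed in serum-containing medium for 3 days before freezing, and cells were released with pronase and collagenase. Tissue was pulverized in TRIzol before column purification while cells went onto the column directly, so that extraction and sample type cannot be told apart. By the study's methods 1 explant of each zone was taken from each of 3 menisci, so that inner and outer tissue share menisci. The inner zone was the inner 2/3 of the meniscus and the outer zone the outer 1/3. The explants came from different positions along the meniscus, over horns and midbody, and the labels do not give the position of a library. The study states that its cells and tissue did not come from matched donors, so that donor and sample type cannot be told apart either. The labels do not say which libraries within tissue or within cells share a meniscus or an animal. Cells and tissue share no number, and p-values measure the spread between these libraries. Values are CPM (reads scaled to a common library size by TMM), given in the order of the labels' numbers, which are 1, 2 and 3 for cartilage, 2, 3 and 5 for inner tissue, 2, 3 and 6 for outer tissue, 147, 148 and 149 for inner P3 cells and 147 and 148 for outer P3 cells. Library totals ran from 24440213 to 43304412 reads. A gene was called when edgeR's quasi-likelihood test gave an adjusted p (padj, Benjamini and Hochberg, over 15707 genes) under 0.01 and the log2 fold change exceeded 1 in size, which is 2-fold. Log2 fold changes are given ± SE, here the size of the log2 fold change divided by the square root of the test's F statistic.

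Actin monomers assemble into filaments that tropomyosins coat, that alpha-actinins, filamins, palladin and fascin crosslink, and that nonmuscle myosin pulls into contractile stress fibres. Talin, vinculin, paxillin and zyxin couple these fibres to integrins at focal adhesions, where RhoA, acting through the ROCK kinases, sets the tension. Free actin monomers hold the MRTF cofactors of the transcription factor SRF out of the nucleus, and many genes of the actin cytoskeleton carry the SRF-bound CArG box in their promoters. Chondrocytes in monolayer are known to spread and build stress fibres, while in tissue they are round with cortical actin.

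The CArG box, searched on the gene's strand in the 250 bases upstream of each RefSeq gene start (Sscrofa11.1), reads the same class of letters on both strands. Of the 34 genes, 33 have such a window, and the box was present at 5 of these (15.2%) and at none of FLNA, TNS1 and DIAPH1, against 257 of 19559 protein-coding genes (1.31%). These 5 genes are shown with 60 bases around the box, 5′ to 3′, box in capitals, because 2 actins, a tropomyosin, vinculin and SRF itself stand among them.
ACTB, chr3:4090384-4090443, minus strand: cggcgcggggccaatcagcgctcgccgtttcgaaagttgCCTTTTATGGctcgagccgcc
ACTG1, chr12:1320294-1320353, plus strand: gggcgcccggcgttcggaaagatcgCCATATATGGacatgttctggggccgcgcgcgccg
TPM4, chr2:61476798-61476857, minus strand: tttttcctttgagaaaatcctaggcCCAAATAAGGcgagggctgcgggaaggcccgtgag
VCL, chr14:76699912-76699971, plus strand: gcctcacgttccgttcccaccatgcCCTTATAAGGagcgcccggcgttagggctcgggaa
SRF, chr7:38213240-38213299, plus strand: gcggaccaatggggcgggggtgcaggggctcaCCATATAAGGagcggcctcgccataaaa

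The first base of the box lay 21 bases before the start of ACTB, 36 before ACTG1, 51 before TPM4, 206 before VCL and 28 before SRF. A match is a description of letters and no evidence of binding. Of the 5 genes, ACTB, TPM4 and VCL were called higher in P3 cells than in tissue in both zones, ACTG1 in the inner zone and SRF in neither, where 13.6% of all tested genes were called higher in the inner and 8.36% in the outer zone.

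The 34 genes together held 0.734% ± 0.068 of reads in cartilage (SD, n = 3), 1.05% ± 0.048 in inner tissue (n = 3), 1.48% ± 0.33 in outer tissue (n = 3), 3.14% ± 0.28 in inner P3 cells (n = 3) and 3.50% ± 0.24 in outer P3 cells (n = 2). Every P3 library, at 2.86% or more, lay above every tissue library, of which the highest held 1.81%. Adjusted for exon length, ACTG1 (cytoplasmic gamma-actin) stood highest in inner P3 cells at 2432 CPM per kb, followed by VIM (vimentin) at 2135 and TMSB10, a thymosin that binds actin monomers, at 1543. ACTB (cytoplasmic beta-actin) reached 755, TPM4 723, PFN1 709 and CFL1 672 CPM per kb. In cartilage TMSB10 was highest at 594 CPM per kb, followed by ACTG1 at 483 and VIM at 459, and ACTB stood at 102. In inner P3 cells PXN (paxillin) was lowest at 3.20 CPM per kb. These lengths are exon unions of RefSeq models, whereas reads were counted on Ensembl models.

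Marker genes of cell types differed between the groups as well. The summed level of 8 chondrocyte markers was 36930 to 96240 CPM in cartilage, 6199 to 33240 in inner tissue, 3192 to 12520 in outer tissue and 1807 to 5072 in P3 cells, with COL2A1 between 5.35 and 34.8 CPM in the cells. Against tissue of their zone, inner P3 cells had 5 of the 8 called lower and 1 higher, and outer P3 cells 4 lower and 1 higher. By the same rule, 13.6% of all tested genes rose and 12.1% fell in inner P3 cells. In outer P3 cells 8.36% rose and 8.3% fell. These shares are the background for each such count below. COL11A1 went the other way from COL2A1, at 1600 to 4656 CPM in P3 cells and 167 to 829 CPM in meniscus tissue. The 8 fibroblast markers summed to 153100 to 220200 CPM in P3 cells and 10860 to 16300 in meniscus tissue. Cartilage, at 10720 to 26700 CPM, overlapped with meniscus tissue in this sum. COL1A1 stood at 71740 to 110500 CPM in P3 cells and at 4.88 to 1433 CPM in meniscus tissue. Of these 8, inner P3 cells had 5 called higher and 1 lower than tissue, and outer P3 cells 4 higher and 1 lower. DCN went the other way from COL1A1, at 541.5 to 875.4 CPM in P3 cells and 3686 to 5379 CPM in meniscus tissue. Of 10 smooth muscle and pericyte markers, none was at 0 in any P3 or cartilage library, nor in outer tissue libraries 3 and 6. Their sum was 5488 to 10070 CPM in P3 cells, 397 to 1471 in meniscus tissue and 939 to 1142 in cartilage. Inner P3 cells had 7 of the 10 called higher than inner tissue and 2 lower. Outer P3 cells had 6 higher and 2 lower than outer tissue. ACTA2 (smooth muscle actin) reached 3207 to 5980 CPM in P3 cells and stayed at 0.065 to 35.6 CPM in meniscus tissue. RGS5 went the other way from ACTA2, at 0.02167 to 0.08082 CPM in P3 cells and 9.424 to 403.6 CPM in meniscus tissue. The 6 cycling markers summed to 91.1 to 265 CPM in P3 cells and to 27.1 to 133 in meniscus tissue. The 10 macrophage and leukocyte markers summed to 17.1 to 20.1 CPM in P3 cells and to 82.6 to 133 CPM in meniscus tissue, and PTPRC had no read in any P3 library. The 9 endothelial markers summed to 10.2 to 19.95 CPM in cartilage, 8.97 to 11.06 in inner tissue, 18.4 to 655 in outer tissue and 4.70 to 15.2 in P3 cells, and 5 of them were called lower in outer P3 cells than in outer tissue. Over all libraries the sums were 0.222 to 30.4 CPM for 5 adipocyte, 3.84 to 15.5 CPM for 4 skeletal muscle and at most 0.182 CPM for 3 erythroid markers. The part of these differences in the results that follow was not tested, and in bulk RNA fewer cells of a type and less RNA per cell cannot be told apart.

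Passaging was examined by comparing P3 cells with tissue of the same zone. Donor, cell isolation and extraction also differ in this comparison, to which changes with passaging refer below. In the inner zone 20 of the 34 genes rose and 0 fell, where 25.7% of all tested genes were called and 13.6% were called higher. In the outer zone 14 rose and 0 fell, where 16.7% of all genes were called and 8.36% were called higher. The median log2 fold change of the 34 genes was 1.15 in the inner and 0.98 in the outer zone, while the median of all tested genes was 0.01 and -0.01. FLNC (muscle filamin), PALLD (palladin), VCL (vinculin) and MYH9 (nonmuscle myosin heavy chain IIA) were among the 6 largest changes in both zones, with FSCN1 (fascin) and LIMA1 (EPLIN, which stabilizes actin bundles) beside them in the inner zone. All 14 genes called in the outer zone were among the 20 called in the inner zone, which is 70% of the inner list. The 2 comparisons share no library but are not independent, since their tissue came from the same menisci and 1 model fitted all libraries. Over all genes 90.1% of those called higher in the outer zone, and 55.4% of those in the inner zone, were called higher in both. On the adjusted p alone, without the 2-fold limit, 25 of the 34 genes passed in the inner zone, where 38.5% of all genes did, and 23 in the outer zone, where 25% did.

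**Figure D1:**
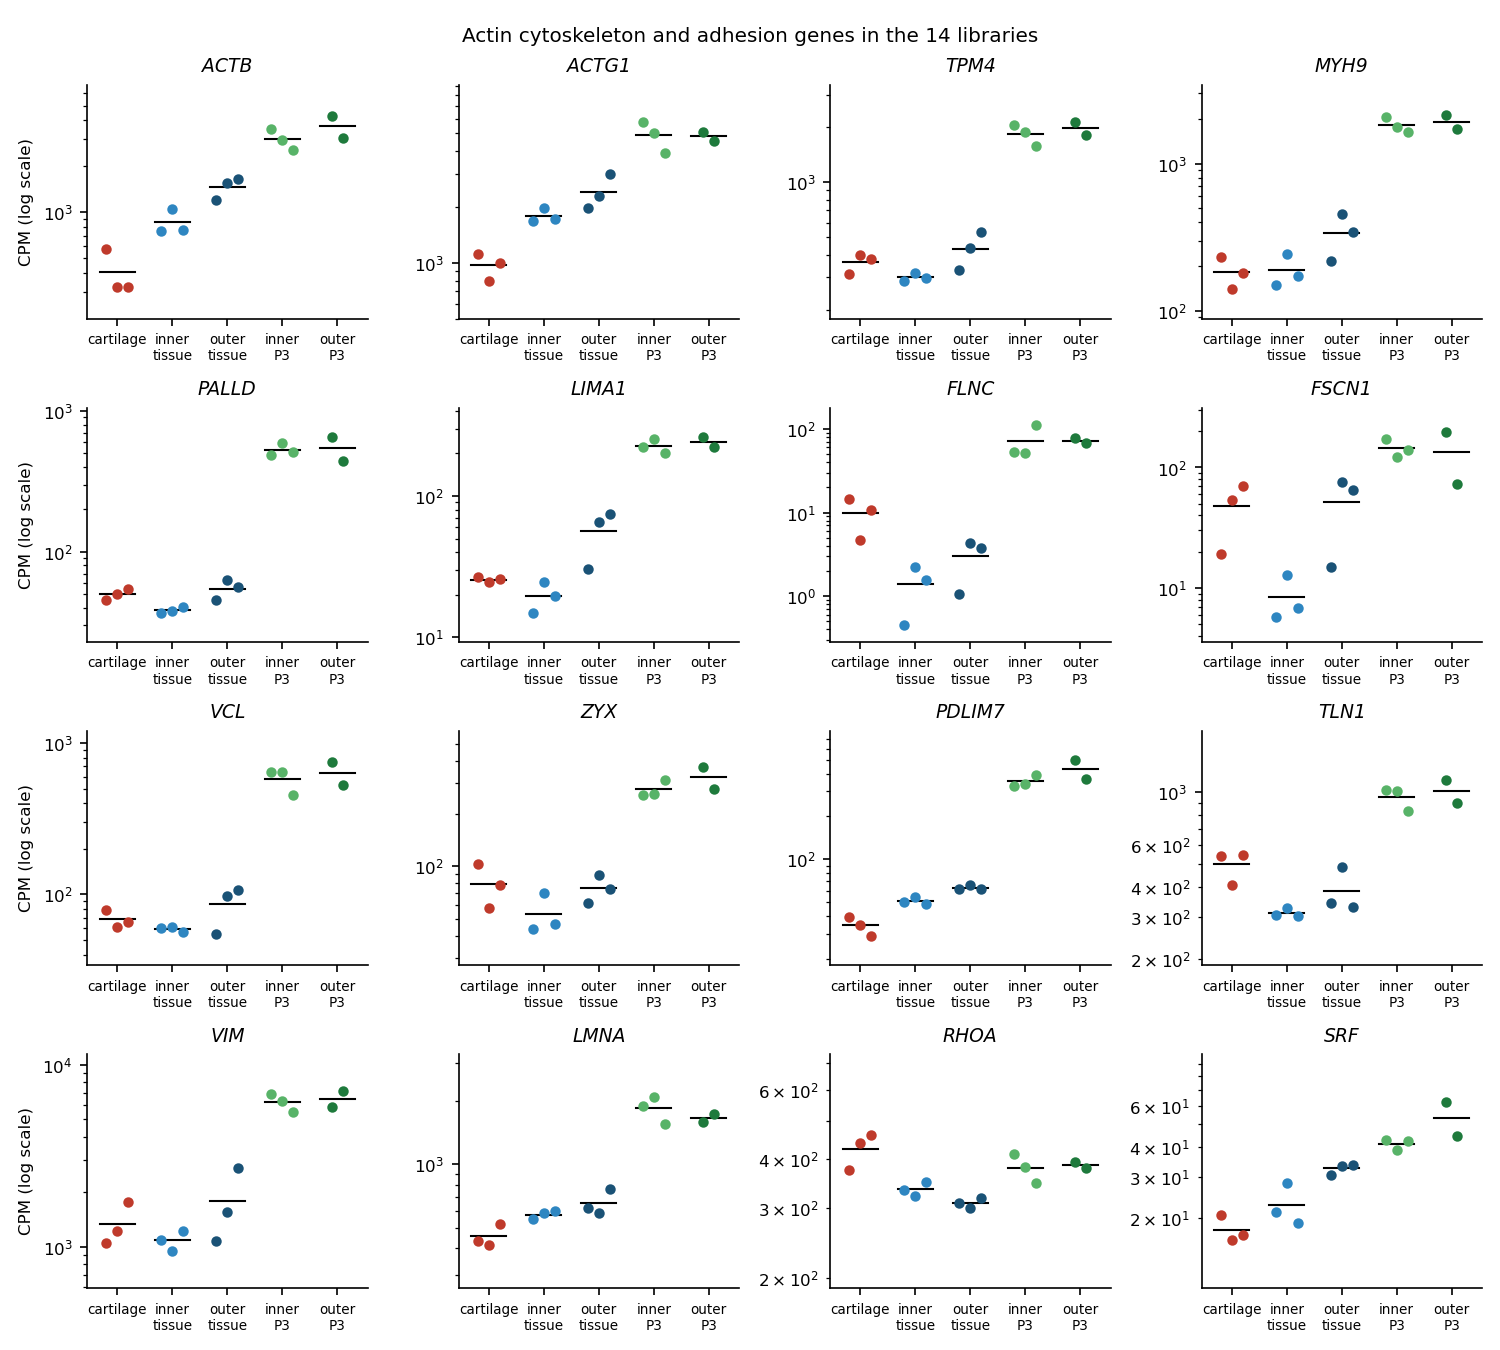
Normalised read counts (CPM, log axis) of 16 of the genes in each of the 14 libraries, as 1 point per library with the group mean as a black line. The 5 P3 libraries stand above the 6 meniscus tissue libraries for ACTB, ACTG1, TPM4, MYH9, PALLD, LIMA1, FLNC, VCL, ZYX, PDLIM7, TLN1, VIM, LMNA and SRF, while for RHOA and FSCN1 P3 and tissue libraries overlap.

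Of the 6 genes for actin and its monomer-binding proteins 4 rose in inner zone cells, and 1 of them, ACTB, in outer zone cells. ACTB, widely used as a reference gene in PCR, was at 573, 321 and 326 CPM in cartilage, 750.1, 1051 and 768 CPM in inner tissue, 1204, 1561 and 1653 CPM in outer tissue, 3497, 2993 and 2575 CPM in inner P3 cells and 4295 and 3057 CPM in outer P3 cells. Each P3 library lay above each tissue library, and within tissue cartilage was lowest and outer tissue highest. Its log2 fold change with passaging was 1.82 ± 0.26 (padj = 0.000105) in the inner and 1.32 ± 0.28 (padj = 0.00282) in the outer zone. ACTG1 was at 1115, 799.6 and 1003 CPM in cartilage, 1678, 1963 and 1727 CPM in inner tissue, 1977, 2283 and 3010 CPM in outer tissue, 5728, 5039 and 3926 CPM in inner P3 cells and 5076 and 4560 CPM in outer P3 cells. The order of the groups was again cartilage, inner tissue, outer tissue and cells, with a log2 fold change of 1.45 ± 0.21 (padj = 0.000117) in the inner zone and 0.99 ± 0.23 (padj = 0.00478), just short of 2-fold, in the outer zone.

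TMSB10, which sequesters actin monomers, was at 302, 290.3 and 236 CPM in cartilage, 232, 324 and 298 CPM in inner tissue, 301, 502 and 575 CPM in outer tissue, 739, 722 and 692 CPM in inner P3 cells and 963 and 765 CPM in outer P3 cells. All P3 libraries lay above all tissue libraries. It rose in inner zone cells with a log2 fold change of 1.33 ± 0.22 (padj = 0.000279) and gave 0.91 ± 0.24 (padj = 0.00954) in the outer zone, where libraries 3 and 6 of the tissue were already higher than those of inner tissue. PFN1 (profilin, which feeds monomers to growing filament ends) rose in inner zone cells by 1.10 ± 0.17 (padj = 0.000154) on the log2 scale. CFL1 (cofilin, which severs filaments) gave 0.39 ± 0.19 (padj = 0.0961) in the inner and 0.18 ± 0.21 (padj = 0.509) in the outer zone and was not called. CAPG, which caps filament ends, was at 134, 161 and 211 CPM in cartilage, 280.1, 504 and 358 CPM in inner tissue, 489.8, 561 and 782 CPM in outer tissue, 346, 327 and 270 CPM in inner P3 cells and 412 and 350 CPM in outer P3 cells. Its mean was highest in outer tissue, cell and inner tissue libraries overlapped, and its log2 fold change with passaging was -0.28 ± 0.24 (padj = 0.355) in the inner and -0.68 ± 0.28 (padj = 0.0661) in the outer zone, neither of which passed the test. Reads of ACTB, ACTG1 and the other actins can be split between near-identical genes, and only reads with a single location were counted.

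Among the tropomyosin and myosin genes, MYH9 and TPM4 rose in both zones, and TPM3, MYL6 and MYL12A were not called in either. MYH9 was at 233, 142 and 179.7 CPM in cartilage, 149, 244 and 171 CPM in inner tissue, 218, 453 and 342 CPM in outer tissue, 2070, 1783 and 1629 CPM in inner P3 cells and 2156 and 1710 CPM in outer P3 cells. Tissue and cell libraries did not overlap, with log2 fold changes of 3.28 ± 0.30 (padj = 3.57e-06) in the inner and 2.52 ± 0.31 (padj = 7.00e-05) in the outer zone. TPM4, a short tropomyosin of the cytoskeleton, was at 312, 398 and 377 CPM in cartilage, 285, 316 and 298 CPM in inner tissue, 328, 433 and 532 CPM in outer tissue, 2044, 1889 and 1576 CPM in inner P3 cells and 2143 and 1810 CPM in outer P3 cells. It rose by 2.61 ± 0.20 (padj = 1.05e-06) in the inner and 2.20 ± 0.21 (padj = 1.23e-05) in the outer zone on the log2 scale, whereas TPM3, another cytoskeletal tropomyosin, had negative values of -0.28 ± 0.10 (padj = 0.0268) and -0.35 ± 0.11 (padj = 0.0239). The myosin light chain MYL6 gave 0.76 ± 0.16 (padj = 0.00152) and 1.00 ± 0.18 (padj = 0.000772), the latter just short of the limit, and MYL12A, whose reads cannot be told apart safely from those of its near-copy MYL12B, gave 0.33 and 0.50.

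The group of crosslinkers and membrane linkers held the 4 largest changes of the inner zone, with 6 of 9 genes higher in inner zone and 4 of 9 in outer zone cells. FLNC was at 14.4, 4.65 and 10.8 CPM in cartilage, 0.455, 2.21 and 1.55 CPM in inner tissue, 1.05, 4.38 and 3.74 CPM in outer tissue, 53.4, 51.2 and 112 CPM in inner P3 cells and 77.1 and 67.4 CPM in outer P3 cells. It was lowest in inner tissue and highest in cells, with log2 fold changes of 5.69 ± 0.65 (padj = 1.77e-05) in the inner and 4.53 ± 0.62 (padj = 0.000153) in the outer zone. PALLD, a scaffold of stress fibres, was at 45.4, 50.5 and 54.3 CPM in cartilage, 36.8, 38.0 and 40.4 CPM in inner tissue, 45.2, 62.8 and 56.3 CPM in outer tissue, 488, 589 and 512 CPM in inner P3 cells and 659 and 439.7 CPM in outer P3 cells. The cell libraries did not overlap with tissue, and the log2 fold changes were 3.79 ± 0.19 (padj = 1.68e-07) and 3.33 ± 0.19 (padj = 6.44e-07). LIMA1 was at 26.6, 24.5 and 25.9 CPM in cartilage, 14.9, 24.7 and 19.7 CPM in inner tissue, 30.4, 65.5 and 74.1 CPM in outer tissue, 223, 252 and 201 CPM in inner P3 cells and 263 and 220.5 CPM in outer P3 cells. Its log2 fold changes were 3.51 ± 0.29 (padj = 1.97e-06) and 2.09 ± 0.29 (padj = 0.000179), and outer tissue libraries 3 and 6 stood between the inner tissue and the cells.

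FSCN1, which packs filaments into tight bundles, was at 19.1, 54.0 and 70.4 CPM in cartilage, 5.72, 12.9 and 6.89 CPM in inner tissue, 15.0, 75.7 and 65.6 CPM in outer tissue, 172, 122 and 139.7 CPM in inner P3 cells and 196 and 73.5 CPM in outer P3 cells. It rose in inner zone cells with a log2 fold change of 4.09 ± 0.65 (padj = 0.000209). In the outer zone the libraries overlapped, since tissue library 3 at 75.7 CPM exceeded cell library 148 at 73.5 CPM, and the log2 fold change of 1.37 ± 0.63 (padj = 0.103) did not pass. ACTN1 (alpha-actinin 1, a crosslinker of stress fibres and adhesions) rose from 111 ± 53.5 CPM to 816 ± 58.1 CPM (SD, n = 3 each) in the inner zone and gave a log2 value of 2.88 ± 0.33 (padj = 1.77e-05) there and of 2.25 ± 0.34 (padj = 0.000298) in the outer zone. Its paralogue ACTN4 gave 1.01 ± 0.18 (padj = 0.000555) in the inner zone, close to the 2-fold limit, and 0.93 ± 0.20 (padj = 0.00303) in the outer zone. FLNA (filamin A), named only by the reference, had log2 fold changes of 3.06 ± 0.32 (padj = 9.48e-06) and 2.47 ± 0.33 (padj = 0.000141) and means of 4978 ± 522 CPM in inner (n = 3) and 6076 ± 1002 CPM in outer P3 cells (n = 2). The membrane linkers EZR (ezrin) and MSN (moesin) and the caveolin CAV1 were not called in either zone, with log2 fold changes of -0.43 and -0.50 for EZR, 0.45 and 0.23 for MSN and 0.86 and 0.85 for CAV1. CAV1 varied within the inner zone cells, where library 149 stood at 141 CPM and libraries 147 and 148 at 394 and 370 CPM.

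Of 8 focal adhesion genes 5 rose in both zones, namely VCL, TLN1, ZYX, PARVA and PDLIM7. VCL, which binds talin and actin under load, was at 79.3, 61.3 and 65.3 CPM in cartilage, 59.9, 61.0 and 56.5 CPM in inner tissue, 54.5, 97.7 and 107 CPM in outer tissue, 642, 644 and 456 CPM in inner P3 cells and 749.5 and 525 CPM in outer P3 cells. Cells and tissue did not overlap, and the log2 fold changes were 3.30 ± 0.26 (padj = 1.15e-06) in the inner and 2.88 ± 0.26 (padj = 1.04e-05) in the outer zone. PDLIM7, a PDZ and LIM domain protein of actin fibres, was at 39.5, 34.6 and 28.9 CPM in cartilage, 49.9, 54.0 and 48.8 CPM in inner tissue, 61.3, 66.2 and 61.5 CPM in outer tissue, 329, 340 and 392 CPM in inner P3 cells and 498 and 365 CPM in outer P3 cells. The libraries of a group were close to each other in inner tissue, outer tissue and inner P3 cells, and less so in cartilage and outer P3 cells. The log2 fold changes were 2.80 ± 0.16 (padj = 3.37e-07) and 2.77 ± 0.16 (padj = 7.46e-07). ZYX (zyxin, which repairs strained stress fibres) was at 103, 57.7 and 78.0 CPM in cartilage, 43.6, 70.4 and 47.0 CPM in inner tissue, 61.3, 89.5 and 74.3 CPM in outer tissue, 256, 259.8 and 312 CPM in inner P3 cells and 371 and 277 CPM in outer P3 cells. It rose with log2 fold changes of 2.36 ± 0.25 (padj = 9.05e-06) and 2.11 ± 0.26 (padj = 7.76e-05), from tissue levels at which cartilage and meniscus overlapped.

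TLN1 (talin, the link between integrin and actin) was at 538, 408 and 546 CPM in cartilage, 306, 325 and 301 CPM in inner tissue, 342, 485 and 329 CPM in outer tissue, 1019, 1011 and 830.2 CPM in inner P3 cells and 1127 and 901 CPM in outer P3 cells. It rose by 1.62 ± 0.19 (padj = 1.82e-05) and 1.40 ± 0.20 (padj = 0.0002) on the log2 scale, and among tissues its mean was highest in cartilage. PARVA (parvin alpha) rose by 1.19 ± 0.15 (padj = 3.77e-05) in the inner and 1.08 ± 0.16 (padj = 0.000295) in the outer zone on the same scale. Its binding partner ILK, the integrin-linked pseudokinase, gave 0.67 ± 0.10 (padj = 0.000168) and 0.67 ± 0.11 (padj = 0.00062), and VASP, which elongates filaments, gave 0.84 ± 0.16 (padj = 0.000615) and 0.53 ± 0.17 (padj = 0.0256), so that both stayed under 2-fold. PXN, an adhesion scaffold, ranged from 19.2 to 31.6 CPM over the 14 libraries, with log2 fold changes of -0.38 ± 0.14 (padj = 0.0337) and -0.07 ± 0.15 (padj = 0.732). TNS1 (tensin 1), named only by the reference, passed in the outer zone with 1.18 ± 0.24 (padj = 0.00221) and gave 0.70 ± 0.22 (padj = 0.0177) in the inner zone.

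VIM and LMNA, for the intermediate filament vimentin and the nuclear lamins A and C, rose in both zones. VIM was at 1044, 1216 and 1756 CPM in cartilage, 1087, 946 and 1219 CPM in inner tissue, 1075, 1554 and 2698 CPM in outer tissue, 6925, 6284 and 5493 CPM in inner P3 cells and 5818 and 7128 CPM in outer P3 cells. Outer tissue library 6 stood above the other tissue libraries, and all P3 libraries lay higher still, with log2 fold changes of 2.52 ± 0.32 (padj = 3.58e-05) and 1.87 ± 0.33 (padj = 0.00087). LMNA was at 434, 413 and 523 CPM in cartilage, 549, 586 and 597 CPM in inner tissue, 619.9, 589 and 762 CPM in outer tissue, 1892, 2073 and 1553 CPM in inner P3 cells and 1588 and 1734 CPM in outer P3 cells. The P3 libraries lay above all tissue libraries. Its log2 fold changes were 1.67 ± 0.17 (padj = 5.98e-06) in the inner and 1.34 ± 0.18 (padj = 0.000122) in the outer zone.

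Of RHOA, ROCK1, ROCK2 and SRF 1 was called in the inner zone and 0 in the outer zone. RHOA was at 375, 439 and 461 CPM in cartilage, 334, 322 and 350.2 CPM in inner tissue, 309, 300.4 and 318 CPM in outer tissue, 411, 382 and 348 CPM in inner P3 cells and 392 and 379.9 CPM in outer P3 cells. Its cell and tissue libraries overlapped in the inner zone, its mean was highest in cartilage, and the log2 fold changes with passaging were 0.18 ± 0.12 (padj = 0.212) and 0.32 ± 0.13 (padj = 0.0689). ROCK1, the kinase downstream of RhoA, was at 60.7, 66.9 and 58.2 CPM in cartilage, 51.4, 49.1 and 44.3 CPM in inner tissue, 46.7, 68.8 and 62.6 CPM in outer tissue, 107, 104 and 102 CPM in inner P3 cells and 113 and 119 CPM in outer P3 cells. Every P3 library exceeded every tissue library. It rose in the inner zone by 1.11 ± 0.13 (padj = 2.52e-05) and gave 0.96 ± 0.15 (padj = 0.000281) in the outer zone, while ROCK2 gave 0.91 ± 0.18 (padj = 0.00097) and 0.54 ± 0.20 (padj = 0.0438). SRF was at 20.5, 16.1 and 17.0 CPM in cartilage, 21.2, 28.2 and 19.1 CPM in inner tissue, 30.4, 33.5 and 33.6 CPM in outer tissue, 43.1, 38.9 and 42.5 CPM in inner P3 cells and 62.1 and 44.6 CPM in outer P3 cells. Cells lay above the tissue of their zone, but with 0.86 ± 0.16 (padj = 0.000718) and 0.71 ± 0.18 (padj = 0.00699) the change stayed under 2-fold in both. DIAPH1, a formin activated by RhoA and named only by the reference, gave -0.04 and -0.22.

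**Figure D2:**
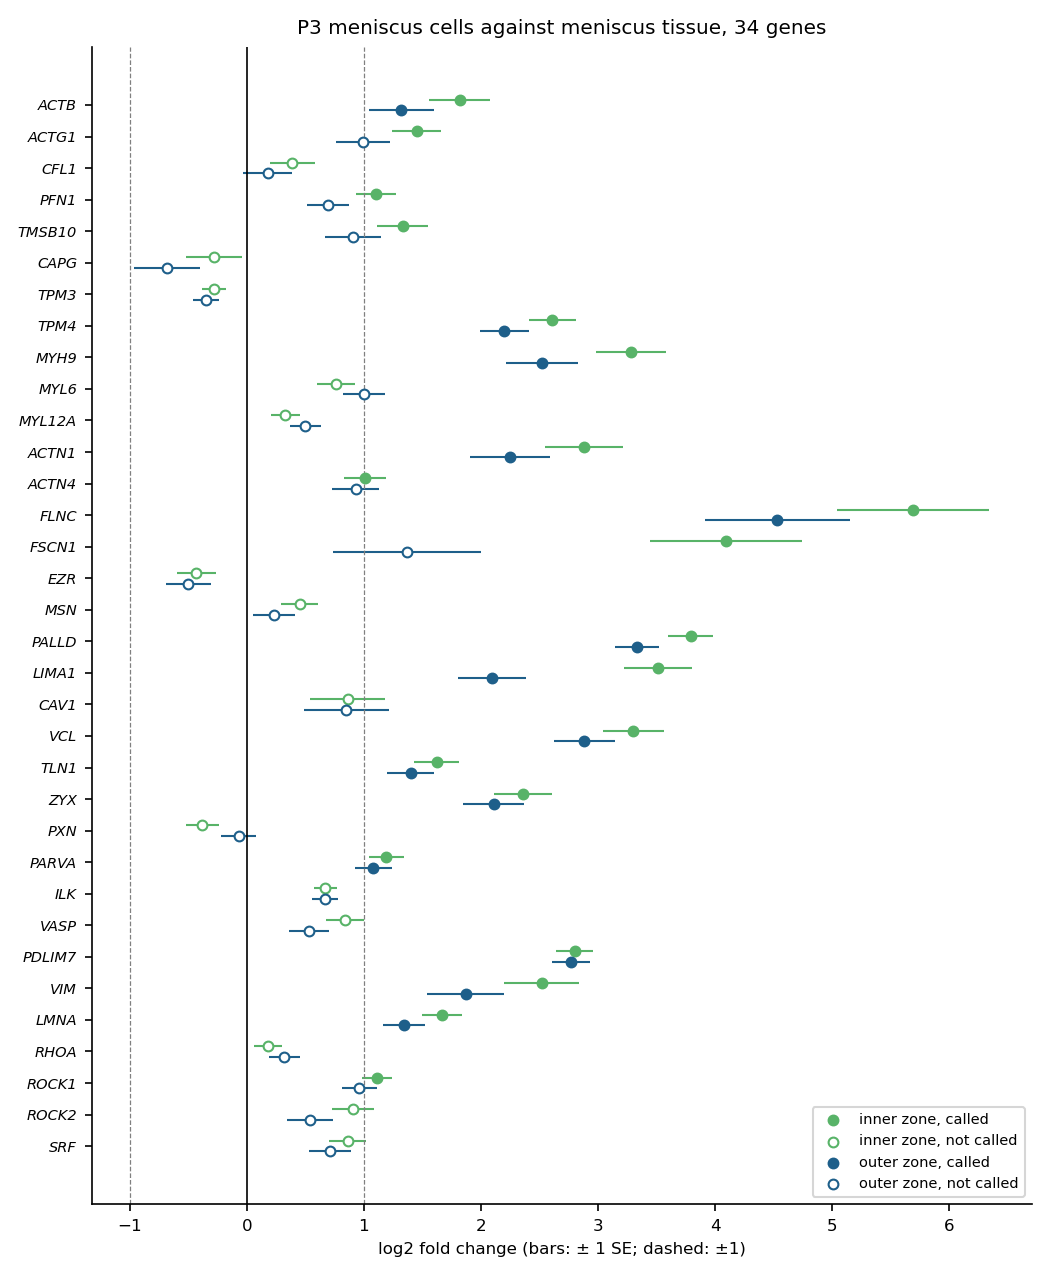
Log2 fold changes of the 34 genes in P3 cells against tissue of the inner zone (green) and outer zone (blue), with bars of 1 SE. Filled points passed the test. No gene has a filled point below 0, FLNC is farthest to the right with 5.69 and 4.53, and CAPG, TPM3, EZR and PXN lie below 0 in both zones.

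ACTN4 lost its call in the inner zone with other size factors, with a stricter filter, with DESeq2, with only the libraries compared, and without inner tissue library 2 or 3 or inner P3 library 147 or 148. In the outer zone, whose cells have 2 libraries, ACTB lost its call without tissue library 2 or cell library 147, PARVA without cell library 147 and VIM without cell library 148, and ACTB, LIMA1 and VIM were lost with only the libraries compared, while a test against the 2-fold limit itself kept 14 of the 20 inner and 9 of the 14 outer zone calls.

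The wider actin machinery is described from lists beside the 34 genes. Each count stands against the 13.6% of all genes called higher in the inner and 8.36% in the outer zone, and differences between lists were not tested. Of 15 tested genes of the Arp2/3 and WAVE complexes, which nucleate branched filaments, 0 rose in either zone and BRK1, a small WAVE subunit, had -1.30 ± 0.18 (padj = 8.47e-05) in the inner zone, where it fell. Of 19 genes of filament bundling and stress fibres 11 rose in the inner zone, and in the outer zone 8 rose and 1 fell. CALD1 (caldesmon, which binds actin and myosin) went from a mean of 89.6 CPM in inner tissue to 3154 CPM in inner zone cells, a log2 fold change of 5.14 ± 0.36 (padj = 7.13e-07), and gave 4.15 ± 0.35 (padj = 6.76e-06) in the outer zone. TPM1 and TPM2, tropomyosins abundant in muscle and stress fibres, had 5.20 ± 0.27 (padj = 2.34e-07) and 4.62 ± 0.58 (padj = 3.36e-05) in the inner zone and 4.61 and 3.68 in the outer zone. Of 9 formins, which nucleate straight filaments, 6 rose in the inner and 5 in the outer zone, led in abundance by DAAM2 with 1.56 ± 0.24 (padj = 0.000161) and 1.38 ± 0.26 (padj = 0.0012).

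Of 18 genes of capping, severing and turnover 7 rose in the inner and 5 in the outer zone, among them TMSB4X (thymosin beta 4) with 2.61 ± 0.36 (padj = 6.68e-05) and 1.88 ± 0.37 (padj = 0.0017) and the cofilin partner WDR1 with 2.08 ± 0.17 (padj = 1.56e-06) and 1.91 ± 0.18 (padj = 1.24e-05). Of 34 further focal adhesion genes 16 rose and 2 fell in the inner zone and 12 rose and 2 fell in the outer zone. TGFB1I1 (Hic-5, a relative of paxillin) had 2.49 ± 0.17 (padj = 7.26e-07) and 2.02 ± 0.18 (padj = 9.31e-06), while paxillin itself did not pass. Of 10 cofactors and targets of SRF 3 rose in each zone and 1 fell in the inner zone. MKL1, the actin-sensing cofactor MRTF-A, had 1.72 ± 0.18 (padj = 1.04e-05) and 1.48 ± 0.20 (padj = 0.000123), and FOS fell in the inner zone with -1.29 ± 0.31 (padj = 0.00349).

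Of 15 genes of the membrane cortex and caveolae 5 rose and 1 fell in the inner zone and 2 rose in the outer zone, and these 2, CAVIN1 and EHD2, are caveola proteins with 1.34 ± 0.25 (padj = 0.0012) and 2.14 ± 0.20 (padj = 1.10e-05). Of 13 other genes of intermediate filaments, lamina and nuclear linkers 3 rose and 1 fell in the inner zone, and 1 fell in the outer zone. The gene that fell in both was SUN2, which spans the inner nuclear membrane, with -1.0 ± 0.15 (padj = 0.000109) and -1.29 ± 0.17 (padj = 0.000114). Of 11 genes of tubulin and microtubules 3 rose in the inner and 2 in the outer zone, with MAP1B at 3.70 ± 0.32 (padj = 2.33e-06) and 2.93 ± 0.32 (padj = 3.52e-05).

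Meniscus tissue was compared with cartilage zone by zone, with the 3 cartilage libraries shared between the 2 comparisons. In inner tissue 3 of the 34 genes were higher and 2 lower, where 9.05% of all tested genes were called, 4.45% higher and 4.6% lower. In outer tissue 6 were higher and 0 lower, where 15.1% of all genes were called, 8.56% higher and 6.5% lower. ACTB, CAPG and EZR were called higher in each zone. The median log2 fold change of the 34 genes was 0.04 in inner and 0.37 in outer tissue, and 0.00 and 0.06 over all genes. Of the 9 endothelial markers 7 were called higher in outer and 0 in inner tissue than in cartilage, and their part in the outer tissue values was not tested.

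EZR, a linker between membrane and cortical actin, had the smallest adjusted p of the 34 genes in each comparison. It was at 112 ± 6.56 CPM in cartilage, 388 ± 36.2 CPM in inner tissue and 382 ± 40.3 CPM in outer tissue (SD, n = 3 each), and P3 cells held 288 ± 71.9 CPM (n = 3) and 271 ± 4.94 CPM (n = 2). All cartilage libraries were at 105 to 116 CPM and no other library was under 214 CPM. The log2 fold change against cartilage was 1.79 ± 0.17 (padj = 3.49e-05) for inner and 1.77 ± 0.17 (padj = 2.69e-05) for outer tissue. CAPG, with the library values above, gave 1.17 ± 0.25 (padj = 0.00356) and 1.86 ± 0.25 (padj = 0.000169), and ACTB gave 1.08 ± 0.26 (padj = 0.00804) and 1.86 ± 0.26 (padj = 0.000243). ACTG1 and CFL1 passed for outer tissue with 1.32 ± 0.21 (padj = 0.000525) and 1.04 ± 0.19 (padj = 0.00101), and their values for inner tissue were 0.88 ± 0.21 (padj = 0.00798) and 0.73 ± 0.19 (padj = 0.0108). LIMA1 passed for outer tissue with 1.14 ± 0.27 (padj = 0.00515) and had -0.38 ± 0.27 (padj = 0.32) for inner tissue.

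FLNC and FSCN1 were lower in inner tissue than in cartilage, with -2.83 ± 0.60 (padj = 0.00403) and -2.49 ± 0.61 (padj = 0.00896). For outer tissue FLNC gave -1.68 ± 0.56 (padj = 0.0296) and FSCN1 0.13 ± 0.57 (padj = 0.885). Of the 8 focal adhesion genes 0 were called in either comparison, and their log2 fold changes ran from -0.68 for TLN1 to 0.57 for PDLIM7 in inner tissue and from -0.37 to 0.88 for the same genes in outer tissue. FLNA, named by the reference, gave 1.48 ± 0.31 (padj = 0.00223) for outer and 0.60 ± 0.30 (padj = 0.152) for inner tissue.

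**Figure D3:**
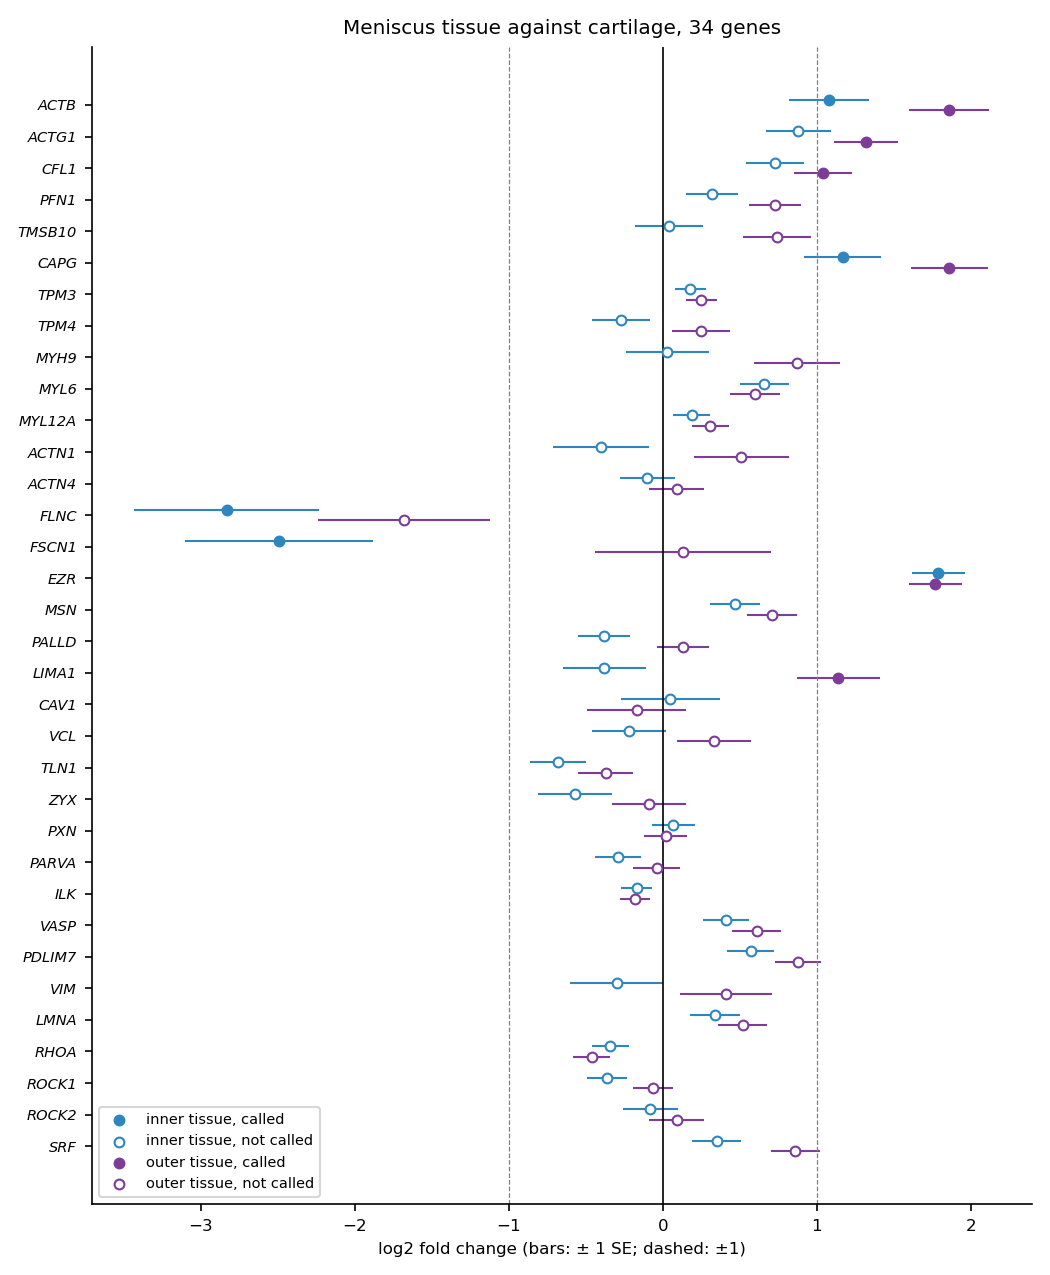
Log2 fold changes of the 34 genes in inner (blue) and outer (purple) zone meniscus tissue against the same 3 cartilage libraries, with bars of 1 SE and filled points for those that passed the test. EZR, at 1.79 and 1.77, ACTB and CAPG are filled on the right in both, and FLNC (-2.83) and FSCN1 (-2.49) are filled on the left for inner tissue.

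With only the libraries of the comparison in the fit, the 5 calls of inner tissue fell to 1, EZR. EZR also kept its call without any single library, while ACTB and FSCN1 were lost without any of the inner tissue libraries or without cartilage library 2 or 3, CAPG without inner tissue library 3 or cartilage library 1 or 2, and FLNC without inner tissue library 2 or 5 or cartilage library 1 or 3, which left 2 or 3 calls each time. In outer tissue LIMA1 was lost without tissue library 3 or 6 or any cartilage library and CFL1 without tissue library 6 or cartilage library 2, and without tissue library 2 MYH9 was added, while a test against the 2-fold limit itself kept 1 call for each zone, EZR, and DESeq2 added FLNC as lower in outer tissue.

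The zones of meniscus tissue were compared next. Of the 34 genes 0 were called between outer and inner tissue, where 0.0318% of all tested genes were called. An unadjusted p under 0.05 was found for 14 of the 34, a larger share than the 20.3% of all genes. DESeq2 called 2 of the 34, FSCN1 and LIMA1, and 348 of all genes. With the label number as a block 0 of the 34 and 89 of all genes were called. The median log2 fold change was 0.31 in the direction of outer tissue, against 0.01 over all genes. FSCN1 had 2.62 ± 0.62 (padj = 0.064) and LIMA1 1.52 ± 0.27 (padj = 0.0357). ACTN1 gave 0.91 ± 0.31 (padj = 0.144), MYH9 0.84 ± 0.28 (padj = 0.131), ACTB 0.78 ± 0.26 (padj = 0.135) and SRF 0.51 ± 0.16 (padj = 0.124).

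Outer tissue library 2 stood apart from libraries 3 and 6. For FSCN1 it was at 15.0 CPM against 75.7 and 65.6, with 5.72 to 12.9 CPM in inner tissue, and for LIMA1 at 30.4 against 65.5 and 74.1, with 14.9 to 24.7 in inner tissue. It fell within the range of the inner libraries for 18 of the 34 genes (52.9%), as for 55% of all tested genes. The 9 endothelial markers summed to 18.4 CPM in library 2, 655 in library 3 and 255 in library 6, and to 8.97 to 11.06 CPM in inner tissue. None of these markers was at 0 in outer libraries 3 and 6, and 2 were in library 2. Their part in the difference was not tested. The study reports that an outer zone sample clustered with the inner ones. It adds that the overlapping meniscus samples lay nearer the horns and the others nearer the midbody. The labels do not say which libraries these were, and the part of position was not tested. Without library 2, FSCN1 had a log2 fold change of 3.06 (padj = 0.00487) and LIMA1 1.82 (padj = 0.000209), so that 2 genes were called, while 363 of all genes were called in place of 5.

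Inner tissue library 3 was in turn the highest of its group for some genes and the lowest for others. It was highest for ACTN1, MYH9, ACTB, LIMA1, FSCN1 and FLNA, and lowest for VIM, MYL6, ACTN4 and RHOA. These genes are examples, and no share over all genes is given. MYL6 was at 411 CPM in library 3 and at 553 and 493.5 CPM in libraries 2 and 5. ACTN1 was at 173 CPM there and at 76.3 and 84.5 CPM in libraries 2 and 5, and FLNA at 873 against 408 and 504 CPM. In the same library the 8 chondrocyte markers summed to 6199 CPM, against 23160 and 33240 CPM in libraries 2 and 5, and the part of this in the values was not tested.

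**Figure D4:**
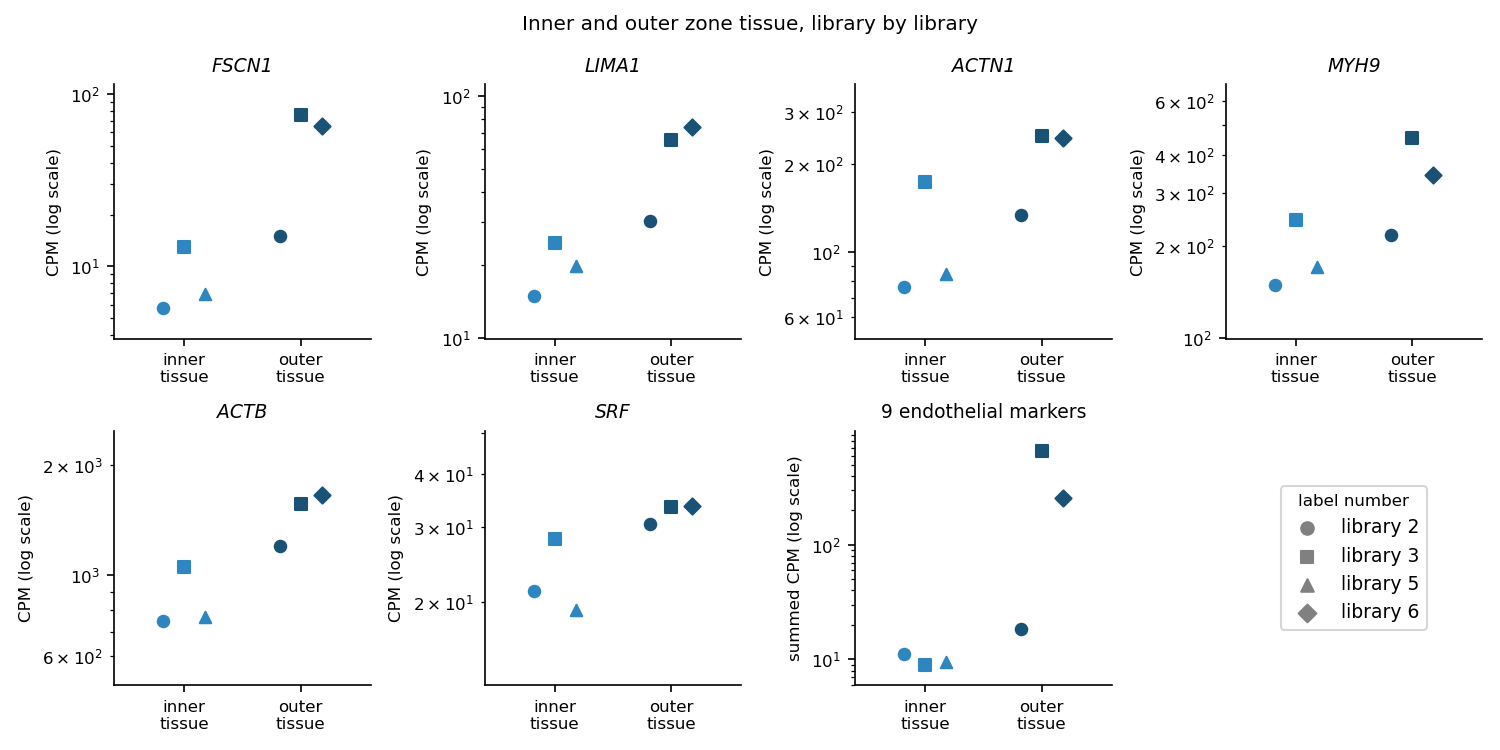
CPM (log axes) of FSCN1, LIMA1, ACTN1, MYH9, ACTB and SRF, and the summed CPM of 9 endothelial markers, in the 3 inner and 3 outer zone tissue libraries, with 1 symbol per label number. Outer library 2 (circle) lies below outer libraries 3 and 6 in every panel, and its endothelial sum is 18.4 CPM against 655 and 255 CPM.

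Between outer and inner zone P3 cells 0 of the 34 genes were called, where 0% of all tested genes were called by edgeR and 10 genes by DESeq2, none of them among the 34. An unadjusted p under 0.05 was found for 1 gene, MYL12A, and for 3.22% of all genes. With the label number as a block 0 of the 34 and 14 of all genes were called. Log2 fold changes ran from -0.22 for CAV1 to 0.36 for SRF. For PFN1 the difference was 0.00 (SE 0.19) and for TPM3 0.00 (SE 0.11), and FSCN1, at -0.10, had the largest SE with 0.64.

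The difference between the zones in the change from tissue to P3 cells was tested as an interaction. Of the 34 genes 0 were called, where 0% of all tested genes were called by edgeR and 17 genes by DESeq2, none of them among the 34. With the label number as a block 0 of the 34 and 20 of all genes were called. An unadjusted p under 0.05 was found for 2 of the 34 genes and for 7.47% of all genes, so that the share of the 34 was no higher than the background. The 2 genes were FSCN1, with a log2 value of -2.72 ± 0.90 (padj = 0.639), and LIMA1, with -1.42 ± 0.40 (padj = 0.603). The estimate was above 0 for 4 of the 34 genes, where values below 0 mean a smaller rise in the outer zone, and the median was -0.28 against -0.03 over all genes. The higher number of genes called in the inner zone is therefore not shown to be a difference between the zones.

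Related genes were also set against each other as ratios of read counts, not adjusted for length, which compare libraries and not genes. They are a description, since the pairs were chosen after their values were seen. For TPM4 to TPM3 the ratio was 2.25 ± 0.26 in cartilage, 1.65 ± 0.0572 in inner tissue and 2.25 ± 0.504 in outer tissue (SD, n = 3 each), and 12.3 ± 1.54 in inner (n = 3) and 13.2 ± 1.2 in outer zone cells (n = 2). For ACTN1 to ACTN4 it was 0.355 ± 0.197 in inner and 0.573 ± 0.18 in outer tissue and 1.28 ± 0.141 and 1.43 ± 0.00141 in the cells, above 1 in every cell library and in no tissue library. ACTB to ACTG1 moved less, from 0.325 to 0.684 over the tissue libraries to 0.594 to 0.846 over the cell libraries, and these ranges overlap. EZR to MSN went the other way within meniscus, from 0.764 ± 0.149 in inner and 0.645 ± 0.148 in outer tissue to 0.405 ± 0.0481 and 0.382 ± 0.0379 in the cells, with 0.303 ± 0.029 in cartilage. For ROCK1 to ROCK2 the ratio was 1.28 ± 0.163 in inner tissue and 1.46 ± 0.102 in inner zone cells, whose libraries overlapped. It was 1.41 ± 0.129 in outer tissue and 1.86 ± 0.0686 in outer zone cells, without overlap, and 1.54 ± 0.0902 in cartilage.

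**Figure D5:**
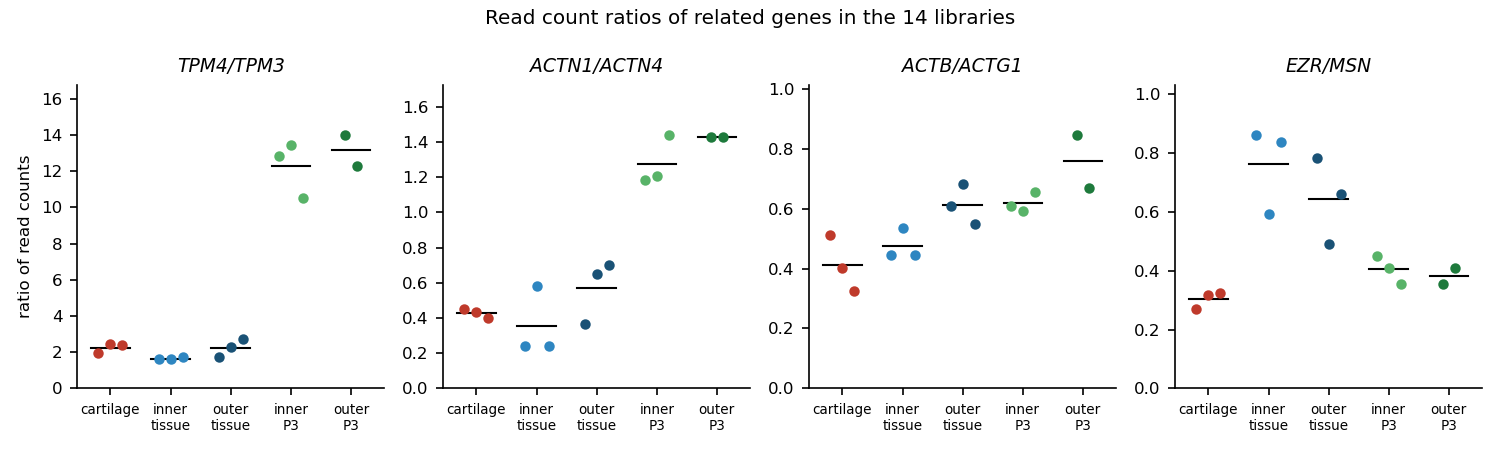
Ratios of read counts for TPM4 to TPM3, ACTN1 to ACTN4, ACTB to ACTG1 and EZR to MSN in each of the 14 libraries, as 1 point per library with the group mean as a black line and axes from 0. TPM4 to TPM3 is 10.5 or more in each P3 library and at most 2.73 in each tissue library, and the ACTB to ACTG1 ranges of tissue and cells overlap.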

How the data were processed

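RNA of 14 libraries was sequenced with a stranded mRNA kit. The authors trimmed reads with Trim Galore, aligned them with STAR to Sscrofa11.1 (Ensembl 91) and counted uniquely mapped reads per gene with HTSeq. The strand setting of the counting is not given in the sources used here. The deposited raw counts were used. The authors' normalised tables were not used. Scaling by TMM and testing used edgeR 4.0.16 (R 4.3.3, quasi-likelihood test, Benjamini-Hochberg adjustment) with all 14 libraries in 1 model and a mean per group. Genes with fewer than 10 summed reads were left out, which kept 15707. A gene was called at adjusted p under 0.01 and log2 fold change over 1 in size, after the study's thresholds. Of repeated symbols the row with most reads was kept. The genes, pathway lists, marker lists and tests were chosen with earlier results of these data known. Values per library are given for up to 4 called genes of each role with the largest change and for ACTB, VIM, RHOA and SRF, and from each pathway list up to 3 called genes of highest mean CPM could be named. CArG boxes and exon lengths come from RefSeq. Alternatives were other size factors, other filters, DESeq2 1.42.0, fewer libraries, a test against the 2-fold limit, each library left out, and a replicate block. The result of 1 pathway list is not reported here.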

Additional observations from a re-analysis of the deposited data

How the results depend on the processing

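No called gene of the 34 changed sign under any alternative tried. The 5 calls of inner tissue against cartilage became 1 with only the libraries compared, 1 in the test against the 2-fold limit, and 2 to 3 without 1 library. The 6 calls of outer tissue against cartilage became 1 in the test against the 2-fold limit and 4 to 7 without 1 library. Between the zones of tissue 0 calls became 2 with DESeq2 and 0 to 2 without 1 library. The 20 calls of inner zone cells became 14 in the test against the 2-fold limit and 19 to 21 without 1 library, and the 14 of outer zone cells became 9, 11 with only the libraries compared, and 12 to 18 without 1 library. Where an arm was left with 1 library, it was assumed to vary like the other groups. Over all genes, the counts called were 1421, 2366, 5, 4033 and 2617 in these comparisons, and 268, 571, 0, 1894 and 945 in the test against the 2-fold limit. With only the libraries compared they were 913, 1548, 0, 3844 and 1515. DESeq2 called 348 genes between the tissue zones, and 363 were called by edgeR without outer tissue library 2. The cause of these differences was not tested. The filter on low counts and the size factors moved no count of the 34 by more than 1.

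With the label numbers as a replicate block, 1 gene (EZR) was called for inner tissue against cartilage, 2 (ACTB and EZR) for outer tissue against cartilage and 0 between the zones of tissue, between the zones of cells and in the interaction, while over all genes the counts were 389, 600, 89, 14 and 20. Deviations from the group means correlated at 0.336 for tissue libraries 2, 0.164 for tissue libraries 3, 0.22 for cell libraries 147 and 0.268 for cell libraries 148, and at -0.121 to 0.002 between meniscus and cartilage libraries of 1 number. Inner and outer tissue come from the same 3 menisci, but their label numbers (2, 3 and 5, and 2, 3 and 6) match for 2 libraries only, and the labels do not say that a shared number is a shared meniscus or animal. For cells against tissue no paired analysis was possible, since the study did not match their donors and the groups share no number. Groups of 2 or 3 libraries limit every comparison, and for FLNC the inner tissue levels of 0.455 to 2.21 CPM rest on few reads.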

Other observations

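Beside the 34 genes, meniscus tissue differed from cartilage in single genes of the other cytoskeletal lists, in comparisons that share the cartilage libraries. CALD1, which was at 30.3 ± 7.47 CPM in cartilage, 89.6 ± 27.3 CPM in inner and 195 ± 73.2 CPM in outer tissue (SD, n = 3 each), was called higher in both zones with log2 fold changes of 1.57 ± 0.31 (padj = 0.0026) and 2.69 ± 0.32 (padj = 7.77e-05). TMSB4X was higher with 1.56 ± 0.35 (padj = 0.00512) and 2.75 ± 0.36 (padj = 0.000145), from 39.7 ± 7.12 CPM in cartilage. CD44, the hyaluronan receptor that ezrin and moesin tie to actin, was at 16.2 ± 10.8 CPM in cartilage, 91.4 ± 35.2 CPM in inner and 143 ± 44.4 CPM in outer tissue, with 2.49 ± 0.45 (padj = 0.00147) and 3.14 ± 0.46 (padj = 0.000275). FHL2, a LIM domain protein of focal adhesions, gave 4.74 ± 0.96 (padj = 0.00302) and 7.01 ± 0.92 (padj = 0.00015) from levels of 0.123 to 0.236 CPM in cartilage, which rest on few reads. MAP1B, a microtubule protein, was lower in both zones with -2.12 ± 0.30 (padj = 0.000341) and -1.34 ± 0.29 (padj = 0.00311).

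By list, inner tissue had 3 of 18 capping and turnover genes higher and 0 lower, 1 of 19 bundling genes higher and 3 lower, and 3 of 13 lamina and nuclear linker genes higher and 1 lower. Outer tissue had 3 of 18, 5 of 19 and 4 of 13 higher and 0, 2 and 0 lower. Of 34 focal adhesion genes 2 were higher and 3 lower in inner and 5 higher and 3 lower in outer tissue. Of 9 formins 0 were called in inner and 3 were higher in outer tissue, of 15 membrane cortex genes 1 was higher and 1 lower in inner and 4 were higher in outer tissue, and of 11 tubulin and microtubule genes 1 was lower in each and 3 were higher in outer tissue. Of 10 cofactors and targets of SRF 0 were called in either zone. Over all genes 4.45% were higher and 4.6% lower in inner tissue, and 8.56% and 6.5% in outer tissue. Of the 15 Arp2/3 and WAVE genes 0 were called in either zone. Between outer and inner tissue 0 genes of the cytoskeletal lists were called. Of the nuclear membrane genes LBR was higher, with 1.43 ± 0.21 (padj = 0.000456) in inner and 1.63 ± 0.21 (padj = 0.000133) in outer tissue, and SUN1 with 1.10 ± 0.14 (padj = 0.000229) in inner tissue.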
